A study of Mus musculus with 12 samples.

Results

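Acetaminophen (APAP) and vehicle were compared in mouse livers labelled as *Gna12* knockout (KO). These were 6 of the 12 livers of the series, chosen by their count columns alone: 3 livers labelled KO that had received APAP and 3 labelled KO that had received vehicle. All mice were male C57BL/6 animals, aged 10 to 12 weeks by the labels. APAP was given once by intraperitoneal injection at 300 mg/kg after an overnight fast, and livers were taken 6 h later; the other mice received vehicle. The knockout is constitutive rather than restricted to a cell type, and all 6 livers compared here carried its label. Each library was poly(A) RNA of a whole liver, 1 mouse per library, and the question was which transcripts APAP raised and lowered under this genotype label. The remaining 6 livers, from wild-type (WT) littermates under the same 2 treatments, appear only at the end, as a second and independent measurement of the same drug effect.

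*Gna12* itself, which encodes the alpha subunit of the heterotrimeric G protein G12, did not behave as an absent transcript. On chromosome 5 (GRCm38.p6, 140759944 to 140830431), it gave 70.9, 69.6 and 57.7 CPM (counts scaled to library size) in vehicle livers 1 to 3 and 46.1, 51.2 and 48.8 in APAP livers 1 to 3. All 6 livers held the transcript, and the APAP livers lay below the vehicle livers, with a log2 fold change of -0.44 ± 0.13 (SE, n = 3 and 3) and an adjusted p of 0.0387 by edgeR's quasi-likelihood test. Leaving out any 1 liver other than vehicle liver 3 ended that call, with adjusted p between 0.0586 and 0.136. Whole-gene counts do not show whether the transcript carries a deletion, so the livers are called "labelled KO" throughout. Each library held 49737950 to 63817176 counts, and transcripts encoded by mitochondrial DNA took 6.96% to 9.47% of them, the highest share being vehicle liver 3. On log2 CPM the libraries correlated at 0.974 to 0.980 within a treatment and at 0.930 to 0.954 between treatments. Hepatocyte markers were abundant in all 6 livers, with *Alb*, which encodes albumin, at 55120 to 71610 CPM.

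APAP is cleared in the liver by sulfation and glucuronidation. A part is oxidised, mainly by CYP2E1, to a reactive quinone imine that consumes glutathione and, once glutathione runs low, binds mitochondrial and other proteins. Oxidative stress, activation of the kinase JNK and necrosis follow, centred on the hepatocytes around the central vein, where CYP2E1 is richest. Hepatocytes answer such injury through separate transcriptional programmes: AP-1 and the immediate early genes, the integrated stress response through ATF4, the heat shock response through HSF1, and the antioxidant response through NRF2.

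APAP shifted the transcriptome broadly in the livers labelled KO. Of 15665 genes tested, 2034 (13.0%) were higher and 1504 (9.60%) were lower at an adjusted p of 0.05 (edgeR, quasi-likelihood test). Of the risers 937 changed at least 2-fold and 385 at least 4-fold, against 612 and 107 of the fallers, so the large changes were mostly upward. The median log2 fold change was 0.94 for risers, -0.87 for fallers and -0.02 for all tested genes. The 3 APAP livers did not overlap with the 3 vehicle livers for 99.6% of the risers and 99.7% of the fallers. Among all tested genes this held for 42.9% in either direction, 3507 higher and 3207 lower. Risers and fallers were called on these same values, so their separation adds no evidence. Risers took 5.7% of all counts in the vehicle livers and 14.3% in the APAP livers, while fallers took 18.6% and 10.9%. The balance of higher and lower calls depended on the scaling: upper-quartile scaling gave 1724 higher and 1987 lower genes and moved the median of all genes to -0.105, and library size alone gave 2252 and 831 with a median of 0.101. With 1 liver left out, the calls fell to between 1261 (without vehicle liver 2) and 1967 higher and between 734 (without vehicle liver 2) and 1401 lower. In all 6 of these fits 1057 of the 2034 risers (52.0%) and 565 of the 1504 fallers (37.6%) were called again. Each list below is given with its leave-one-out range, the lowest and highest count of called members over those 6 fits.

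**Figure D1:**
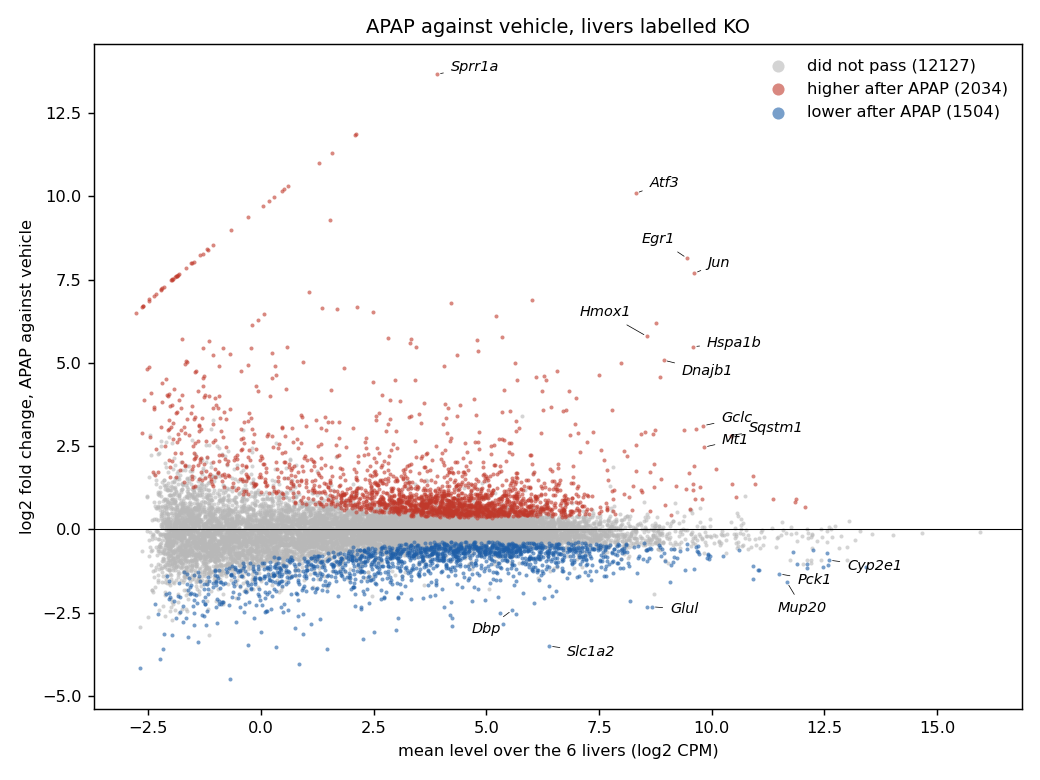
Each point is 1 of the 15665 tested genes, with its mean level over the 6 livers labelled KO on the x axis (log2 CPM) and its log2 fold change, APAP against vehicle, on the y axis. The 2034 higher genes (red) reach much larger changes than the 1504 lower genes (blue), and the straight line of red points at upper left holds genes with no count in any vehicle liver, whose fitted fold change depends on the prior count.

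The most extreme risers were silent or nearly silent in the vehicle livers. *Sprr1a*, which encodes a cornified envelope protein induced by injury in several tissues, had 0 counts in all 3 vehicle livers and 42.4, 12.6 and 34.4 CPM in APAP livers 1 to 3. That is at least 486-fold higher when a floor of 3 counts per vehicle liver is taken. *Fosl1*, the AP-1 subunit FRA-1, was also at 0 in every vehicle liver and at 3.3, 0.796 and 9.98 CPM after APAP, at least 76.4-fold higher. *Tnfaip6*, a secreted hyaluronan-binding protein, went from at most 0.102 CPM to 9.2, 4.5 and 5.01 CPM. Among the strongest fallers were transporters: *Slc1a2*, a glutamate transporter of pericentral hepatocytes (log2 fold change -3.50 ± 0.51), *Slc2a5*, the fructose transporter (16.8, 13.5 and 12.2 CPM in the vehicle livers, 1.85, 2.07 and 1.31 CPM in the APAP livers), *Slc22a3*, an organic cation transporter (-2.69), and *Slc13a3*, a dicarboxylate transporter (-2.67). *Lipg*, endothelial lipase, fell by 2.58 and *Rgs16*, a regulator of G protein signalling, fell by 2.55 on the log2 scale. All of these kept their call whichever liver was left out.

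**Figure D2:**
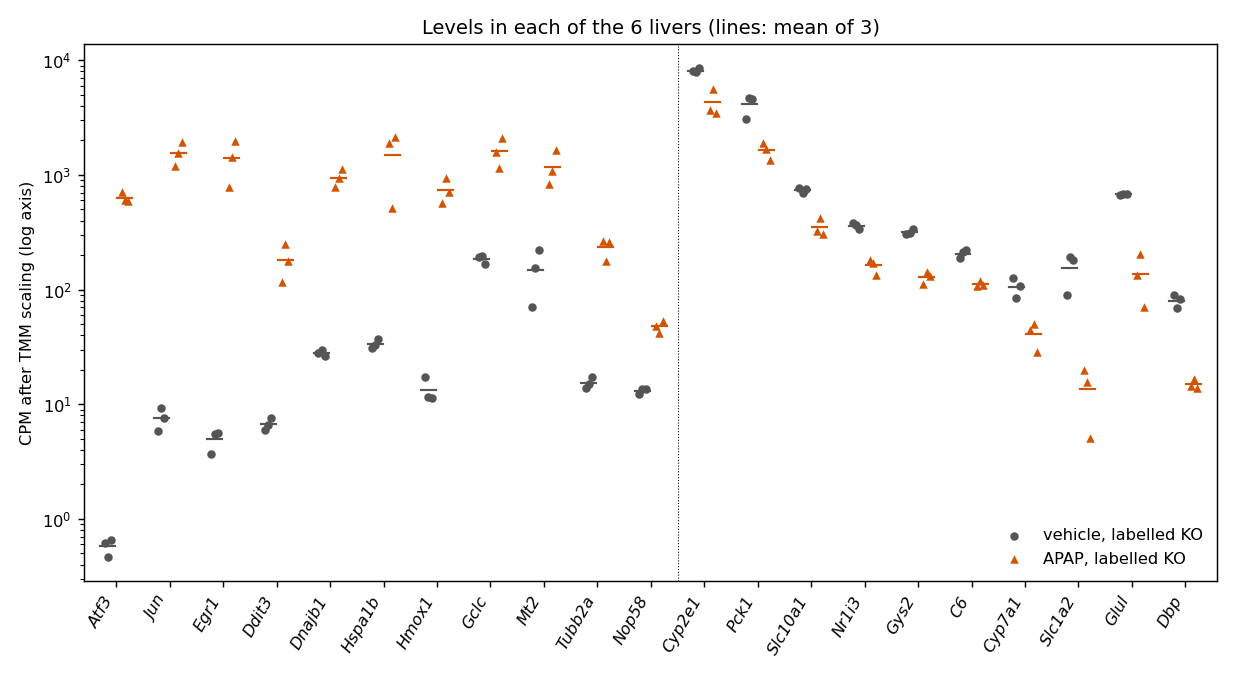
CPM of 21 genes in each of the 6 livers labelled KO, on a log axis; grey circles are the 3 vehicle livers, orange triangles the 3 APAP livers, and short lines the mean of each group. The 11 genes left of the dotted line rose and the 10 right of it fell, and no gene shown has overlapping groups.

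The AP-1 family had the highest median change of the 51 gene lists. AP-1 is a dimer of JUN and FOS proteins, and ATF3 is a stress-induced partner of JUN. Of 13 members tested, 10 were higher and none lower (leave-one-out range 10 to 10 higher), with a median log2 fold change of 3.59. *Atf3* (chromosome 1, 191170296 to 191183333) stood at 0.62, 0.468 and 0.653 CPM in the vehicle livers and at 704, 605 and 598 CPM after APAP, a 1092-fold rise (log2 fold change 10.09 ± 0.22, adjusted p = 4.22e-07, edgeR). The 3 APAP livers agreed closely for this gene. *Jun* went from 5.81, 9.21 and 7.58 CPM to 1196, 1550 and 1920 CPM (7.69 ± 0.30). *Fos* rose in every liver but unevenly, from at most 1.69 CPM to 23.7, 234 and 124 CPM (6.88 ± 0.88), with APAP liver 1 lowest. *Jund* (2.84), *Junb* (3.59) and *Fosl2* (2.93) rose less, and so did the small MAF proteins *Maff* (3.67) and *Mafk* (1.94), which dimerise with NRF2.

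Immediate early genes outside AP-1 followed, with 22 of 30 higher, none lower (leave-one-out range 20 to 21 higher) and a median of 2.20. *Egr1*, a zinc finger factor induced by MAP kinases, went from 3.65, 5.55 and 5.65 CPM to 779, 1421 and 1988 CPM (8.14 ± 0.44). *Klf6*, another zinc finger factor, reached 177, 110 and 162 CPM from 6.06, 5.65 and 6.58 CPM (4.62 ± 0.21), and *Ier5* rose by 3.76. *Myc*, a driver of growth and ribosome production, stood at 12.5, 3.99 and 2.78 CPM in the vehicle livers and 67, 78.7 and 77.1 CPM after APAP (3.52 ± 0.51). Vehicle liver 1 was the highest of its group for *Myc*, still far below every APAP liver.

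Of 17 dual-specificity phosphatases, some of which remove phosphate from JNK, p38 and ERK, 9 were higher and 1 lower (leave-one-out range 7 to 8 and 0 to 1). *Dusp8*, which acts on JNK and p38, rose from 0.177, 0.529 and 0.28 CPM to 39.1, 29.6 and 40.5 CPM (6.80 ± 0.33). *Dusp5*, selective for ERK, rose by 5.60, *Dusp4* by 3.40 and *Dusp1* by 3.55. Of the 19 stress MAP kinase and GADD45 genes, 10 were higher and 2 lower (9 to 11 and 2 to 3). *Gadd45a*, which responds to DNA damage and binds the kinase MEKK4, rose from 1.21, 1.02 and 0.934 CPM to 49.5, 69.3 and 45.1 CPM (5.69 ± 0.23). Among the kinases *Map3k6* rose by 1.94, *Map3k14* by 1.76 and *Mapkapk2* by 1.06, and *Map2k4*, an activator of JNK, was at 0.61 ± 0.12. *Map2k6*, an activator of p38, fell from 26.3, 40.4 and 33.2 CPM to 4.93, 6.66 and 1.79 CPM (-2.90 ± 0.42). *Mapk8*, which encodes JNK1, did not pass (0.38, adjusted p = 0.063).

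In the integrated stress response, kinases that sense unfolded protein, missing amino acids or oxidants slow translation while the factors ATF4 and CHOP (*Ddit3*) induce amino acid supply and redox genes. Of 28 members 21 were higher, none was lower and 7 did not pass (leave-one-out range 20 to 21), with a median of 1.53. *Ddit3* went from 5.93, 6.63 and 7.54 CPM to 117, 252 and 177 CPM (4.76 ± 0.30), and *Atf4* from 55.1, 66.6 and 61 CPM to 138, 207 and 201 CPM (1.58 ± 0.18). *Psat1*, an enzyme of serine synthesis, rose by 4.92 ± 0.47, *Mthfd2*, of mitochondrial folate metabolism, by 3.88, and *Slc3a2*, a subunit of amino acid transporters, by 1.43. *Ppp1r15a*, which restores translation, rose by 3.27. Secreted products of the pathway rose too, with *Gdf15*, a stress hormone that suppresses appetite, at 3.75 ± 0.47 and *Fgf21*, a fasting and stress hormone, at 2.65 ± 0.36.

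*Slc7a11*, the cystine transporter that supplies glutathione synthesis, belongs to this list and to the NRF2 and ferroptosis lists. It had 0.0709, 0 and 0 CPM in the vehicle livers and 3.71, 1.47 and 6.93 CPM after APAP (log2 fold change 7.13 ± 0.93, adjusted p = 0.00232, edgeR). Its promoter is shown because the CHOP and ATF4 letters TGATGNAA, searched on both strands, lie there in both orientations, starting 66 and 47 bases before a RefSeq start of transcription. The sequence is the 250 bases before that start, chr3:50443614-50443863 of GRCm38.p6 on the minus strand, printed 5′ to 3′ with the 2 matches in capitals.
Slc7a11: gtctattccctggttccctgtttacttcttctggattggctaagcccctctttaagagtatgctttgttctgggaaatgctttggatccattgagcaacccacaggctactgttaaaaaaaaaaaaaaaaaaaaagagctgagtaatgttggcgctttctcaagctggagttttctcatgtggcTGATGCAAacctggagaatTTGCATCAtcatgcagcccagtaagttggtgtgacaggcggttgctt

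These letters stood in the windows, 250 bases before to 50 after the start, of 7 of the 24 tested members of the integrated stress response that RefSeq gave a window (29.2%), against 3.1% of all 11625 tested genes with a window. Of these 7 genes 5 were higher, namely *Slc7a11*, *Asns*, *Chac1*, *Fgf21* and *Trib3*, beside 19 of all 24 members with a window. *Asns*, asparagine synthetase, rose by 1.17, *Chac1*, which degrades glutathione, by 3.16, and *Trib3*, a feedback inhibitor of ATF4, by 1.47.

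Of 20 cytosolic aminoacyl-tRNA synthetases, which charge amino acids onto tRNA, 15 were higher and none lower (leave-one-out range 10, without vehicle liver 1, to 15), with a median of 0.64. *Cars* rose by 1.48, *Sars* by 1.31 and *Tars* by 1.17, the last from 61.4, 64.4 and 57.7 CPM to 145, 135 and 134 CPM. Of 28 chaperones and stress sensors of the endoplasmic reticulum 6 were higher and 1 lower (4 to 10 and 1 to 2), with a median of 0.17. *Hspa5*, the chaperone BiP, rose from 430, 470 and 554 CPM to 1833, 1603 and 1676 CPM (1.81 ± 0.16), and *Dnajb9* by 1.28, both with no overlap between groups. *Eif2ak3*, the unfolded protein sensor PERK, rose by 1.44. *Xbp1*, a factor of the unfolded protein response, was called at 1.18 ± 0.27 but not without vehicle liver 2 (adjusted p = 0.0721) or vehicle liver 3 (0.0696). *Hsp90b1* (0.18) and *Calr* (0.14), abundant folding proteins of the same compartment, did not pass.

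Of 31 cytosolic heat shock proteins, chaperones that refold damaged protein, 17 were higher and 1 lower (leave-one-out range 15 to 20 and 1 to 1), with a median of 0.83. The inducible HSP70 genes *Hspa1a* and *Hspa1b* were the most changed of the abundant members. *Hspa1a* stood at 10.8, 12.6 and 11.8 CPM in the vehicle livers and at 1131, 250 and 1193 CPM after APAP (73.03-fold). *Hspa1b* stood at 30.9, 32.9 and 36.8 CPM and then at 1882, 512 and 2125 CPM (44.89-fold). For both genes APAP liver 2 was the lowest of its group and still many times above every vehicle liver. Because their coding sequences are nearly identical, how reads were divided between them is uncertain. *Dnajb1*, their main co-chaperone, did not share this spread among livers, with 27.8, 29.7 and 26.5 CPM in the vehicle livers and 787, 944 and 1117 CPM after APAP (5.08 ± 0.19). *Bag3*, which links HSP70 to autophagy, rose by 3.59 ± 0.37, *Hspb1*, the small chaperone HSP27, by 4.14 ± 0.55 and *Hsph1*, HSP110, by 2.88 ± 0.35. In all 3 of these, too, APAP liver 2 was the lowest of the APAP livers. The constitutive chaperones moved less, with *Hspa8* at 1.36 ± 0.17 and *Hsp90ab1* at 1.36 ± 0.22. *Hsf1*, the factor itself, did not pass (0.37).

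The core of the heat shock element, written here as GAANNTTC and its own reverse complement, was found in 13 of the 26 tested members with a RefSeq window (50%), against 7.1% of all tested genes with a window and 7.3% of all risers. Of those 13 genes 10 were higher, beside 14 of all 26 members with a window. The promoters below are shown because they carry the core in front of strongly raised genes, with the 250 bases before the start in each case (GRCm38.p6, 5′ to 3′, matches in capitals): *Hspa1a* at chr17:34972157-34972406 on the minus strand, *Hspa1b* at chr17:34959239-34959488 on the minus strand and *Hspb1* at chr5:135887669-135887918 on the plus strand.
Hspa1a: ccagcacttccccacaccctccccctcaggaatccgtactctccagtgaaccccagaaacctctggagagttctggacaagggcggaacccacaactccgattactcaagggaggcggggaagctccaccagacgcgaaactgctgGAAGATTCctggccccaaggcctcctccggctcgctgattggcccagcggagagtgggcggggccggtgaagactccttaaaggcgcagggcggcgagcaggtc
Hspa1b: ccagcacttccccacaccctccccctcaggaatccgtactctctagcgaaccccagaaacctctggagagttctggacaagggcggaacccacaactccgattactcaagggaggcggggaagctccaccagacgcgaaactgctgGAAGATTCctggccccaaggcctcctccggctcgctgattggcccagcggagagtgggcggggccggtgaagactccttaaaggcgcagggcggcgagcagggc
Hspb1: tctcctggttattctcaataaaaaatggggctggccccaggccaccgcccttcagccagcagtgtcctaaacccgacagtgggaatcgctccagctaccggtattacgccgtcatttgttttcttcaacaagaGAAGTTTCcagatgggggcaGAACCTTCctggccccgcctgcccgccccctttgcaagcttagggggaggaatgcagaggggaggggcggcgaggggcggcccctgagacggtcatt

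The *Hspa1a* and *Hspa1b* stretches differ at 3 of 250 bases (98.8% identical), and in both the match starts 104 bases before the start. *Hspb1* holds 2 matches, starting 117 and 97 bases before it. A match describes the letters only and does not show that a factor was bound.

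Of 21 ubiquitin and AN1 zinc finger genes 10 were higher and 2 lower (leave-one-out range 6, without vehicle liver 2, to 9 and 0 to 2). *Zfand2a*, an arsenite-inducible AN1 protein, rose from 11.8, 10.8 and 12.2 CPM to 161, 109 and 151 CPM (3.59 ± 0.18). *Sqstm1*, the autophagy receptor p62, rose from 306, 380 and 333 CPM to 2558, 2243 and 2394 CPM (7.062-fold). Among 38 proteasome subunits 8 were higher and 3 lower (3, without APAP liver 3, vehicle liver 1 or vehicle liver 2, to 9 and 3 to 3), with a median of 0.20. *Psmd11*, a lid subunit, rose by 1.04. The 3 lower subunits were the catalytic subunits of the immunoproteasome, *Psmb9* (-1.61), *Psmb8* (-0.91) and *Psmb10* (-0.75).

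The antioxidant programme of NRF2 formed the other large rising group. NRF2 is held back by KEAP1 until electrophiles modify KEAP1, and then induces glutathione synthesis, NADPH supply and heme and iron handling. Of 32 targets 19 were higher and none lower (leave-one-out range 13, without vehicle liver 2, to 19), with a median of 0.88. *Hmox1*, heme oxygenase 1, went from 17.2, 11.6 and 11.3 CPM to 572, 946 and 712 CPM (55.53-fold, adjusted p = 3.03e-05, edgeR). *Gclc*, the catalytic subunit of the first enzyme of glutathione synthesis, went from 193, 195 and 169 CPM to 1584, 1144 and 2094 CPM (8.66-fold), whereas its modifier *Gclm* was at 0.46 ± 0.13 and lost its call without any 1 liver other than APAP liver 2, with adjusted p up to 0.109 (without APAP liver 1). *Srxn1*, sulfiredoxin, rose from 38.9, 35.8 and 37.5 CPM to 1066, 555 and 1058 CPM, and *Txnrd1*, thioredoxin reductase 1, by 2.21 ± 0.20. *Osgin1*, a growth inhibitor induced by oxidants, rose by 2.99, *Pgd*, of the pentose phosphate pathway, by 2.04 and *Gsr*, glutathione reductase, by 0.97 ± 0.12. *Nqo1*, a quinone reductase, rose from 4.91, 3.44 and 3.71 CPM to 10.5, 10.3 and 14.6 CPM (1.55 ± 0.21).

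The core of the antioxidant response element, written here as TGACNNNGC on either strand, stood in the windows of 11 of 27 targets (40.7%), against 16.5% of all tested genes with a window. Of these 11 targets 8 were higher, beside 16 of all 27 with a window. *Ugdh*, which makes the UDP-glucuronic acid used in glucuronidation, is shown because it holds 2 matches and rose from 101, 106 and 119 CPM to 346, 246 and 329 CPM (1.5 ± 0.16). The 250 bases lie at chr5:65435843-65436092 of GRCm38.p6 on the minus strand, with matches starting 132 and 94 bases before the start in capitals.
Ugdh: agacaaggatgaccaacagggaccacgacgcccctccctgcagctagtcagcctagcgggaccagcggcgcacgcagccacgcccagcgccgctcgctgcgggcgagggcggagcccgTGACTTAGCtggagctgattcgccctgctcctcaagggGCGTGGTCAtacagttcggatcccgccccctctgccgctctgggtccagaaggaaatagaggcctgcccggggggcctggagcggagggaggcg

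Enzymes that use glutathione or remove peroxide did not follow NRF2 targets as lists. Of 22 glutathione S-transferases 3 were higher and 1 lower (leave-one-out range 1 to 4 and 0 to 1), with a median of -0.13 that turned to 0.013 under library size alone. *Gsta1* was the exception, from 1.38, 1.59 and 1.42 CPM to 50.1, 37.1 and 152 CPM (5.77 ± 0.58), and *Gm3776*, a gene of the same alpha class, moved with it (6.39). Reads of these near-identical genes may be divided arbitrarily. Of 23 peroxide and superoxide removing enzymes only *Txnrd1* was higher and only *Sod2* lower, and *Sod2* (-0.41) lost its call without any 1 liver other than APAP liver 2 (adjusted p up to 0.129, without APAP liver 3). *Gpx4*, the selenoprotein that removes lipid peroxides, stood at 192, 204 and 200 CPM in the vehicle livers and at 162, 195 and 195 CPM after APAP (-0.11, adjusted p = 0.563), and library size alone turned that value to 0.011.

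Ferroptosis, a form of death by iron-dependent lipid peroxidation, was represented by 22 tested genes, of which 8 were higher and 2 lower (leave-one-out range 5 to 8 and 1 to 2), with a median of 0.03 that turned negative, to -0.055 at most, under 7 alternatives. The risers were *Slc7a11*, *Hmox1*, *Chac1*, *Fth1* (0.97) and *Ftl1* (0.69, lost without APAP liver 1, APAP liver 3 or vehicle liver 2, adjusted p up to 0.0797), *Sat1*, which degrades polyamines (1.97 ± 0.21), *Acsl4* and *Alox12*. *Acsl4*, which loads polyunsaturated fatty acids into lipids, was at 26.2, 26.7 and 33.4 CPM and then 49.1, 41.5 and 81.9 CPM (1.00 ± 0.25), a call lost without any 1 vehicle liver (adjusted p = 0.0651, 0.0879 and 0.0501). *Alox12*, a lipoxygenase, was at 0.354, 0.366 and 0.467 CPM and then 1.07, 1.14 and 2.42 CPM (1.97 ± 0.41), a call lost only without vehicle liver 2 (adjusted p = 0.0519). *Aifm2*, the ferroptosis suppressor FSP1, fell by 0.77 ± 0.12. *Alox5* had too few counts to be tested.

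Metallothioneins, small proteins that bind zinc and scavenge oxidants, were already variable without the drug. *Mt2* stood at 70, 154 and 221 CPM in the vehicle livers and at 835, 1081 and 1636 CPM after APAP (3.00 ± 0.43), and *Mt1* rose by 2.47 ± 0.42. The zinc exporters *Slc30a1* (1.22) and *Slc30a10* (1.33) rose as well, and of the 9 members of this list 4 were higher and 1 lower (4 to 6 and 0 to 1). Iron and heme genes were near background, 4 of 27 higher and 3 lower (1 to 4 and 1 to 3). *Fech*, the last enzyme of heme synthesis, fell by 0.53 ± 0.11 but not without vehicle liver 1 (adjusted p = 0.0513). *Hamp*, the iron hormone hepcidin, was called at 1.53 ± 0.36, with 914, 844 and 334 CPM after APAP, and lost the call without APAP liver 1 (adjusted p = 0.0634) or any 1 vehicle liver (0.0564 to 0.0619).

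**Figure D3:**
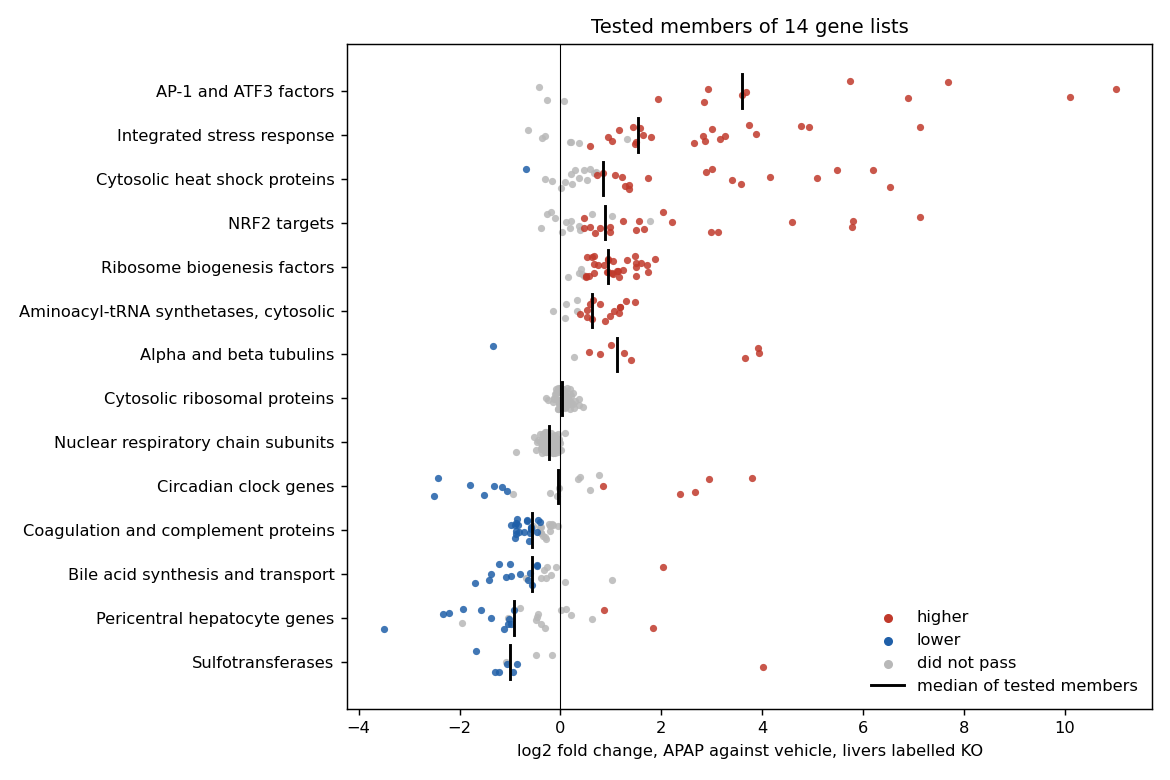
Log2 fold changes, APAP against vehicle in the livers labelled KO, of the tested members of 14 gene lists; each point is a gene, coloured by whether it was higher (red), lower (blue) or did not pass (grey), and black bars are list medians. Members of the AP-1, integrated stress, heat shock and NRF2 lists spread far to the right, ribosomal protein and respiratory chain genes cluster near 0 without a call, and coagulation, bile acid, pericentral and sulfotransferase genes lie to the left.

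Targets of p53 gave 11 of 25 higher and 1 lower (leave-one-out range 8 to 11 and 0 to 1), with a median of 0.47. *Cdkn1a*, the cell cycle inhibitor p21, went from 2.9, 7.77 and 5.81 CPM to 78.5, 164 and 149 CPM (23.81-fold), and *Mdm2*, the ubiquitin ligase that degrades p53, rose by 1.65 ± 0.14. Of 25 BCL2 family and death receptor genes 6 were higher and 2 lower (5 to 7 and 1 to 2). *Tnfrsf12a*, the TWEAK receptor, was the most changed of them, from 3.47, 5.19 and 4.48 CPM to 79.7, 61.4 and 151 CPM (4.48 ± 0.36). *Mcl1*, which opposes apoptosis, rose by 0.99 ± 0.14, while *Bmf*, which promotes it, fell by 1.64 ± 0.24. *Bcl2l11*, which also promotes apoptosis, rose by 1.198, *Tnfrsf1a*, a death receptor, by 1.204 and *Ripk1* by 0.505. The calls in this list therefore did not all point away from cell death. S and M phase genes gave 2 higher and 4 lower of 30 (0 to 2 and 2 to 3), or 6.7% and 13.3%, against 13.0% and 9.60% of all tested genes. Their median was 0.09, and 18 of the 30 had a positive log2 fold change. The 2 risers were *Pcna* (0.81) and *Mcm7* (0.54). *Tk1*, thymidine kinase 1, fell from 20.2, 38.4 and 39.5 CPM to 4.36, 6.76 and 4.53 CPM (-2.65 ± 0.29) and *Birc5*, survivin, fell by 2.34 ± 0.34.

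Ribosome production was split between the factors that assemble ribosomes and the proteins that make them up. Of 35 ribosome biogenesis factors 30 were higher and none lower (leave-one-out range 25 to 33), all 35 had a positive log2 fold change, and the median was 0.95. *Nop58*, a core protein of the small nucleolar particles that guide ribosomal RNA methylation, rose from 12.3, 13.5 and 13.6 CPM to 48.3, 41.6 and 53.8 CPM (3.649-fold), its partner *Nop56* by 1.74, *Tsr1*, of small subunit maturation, by 1.59 and *Gnl3*, nucleostemin, by 1.5. Of 79 cytosolic ribosomal proteins none passed in either direction in the 6-liver fit or in any of the 6 leave-one-out fits, with a median of 0.04 that turned to -0.043 under upper-quartile scaling and to -0.091 without vehicle liver 1.

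Tubulins form microtubules, and SRF and YAP are transcriptional regulators that respond to the cytoskeleton. Of 10 alpha and beta tubulins 8 were higher and 1, *Tuba8*, lower (7 to 8 and 0 to 1, the latter losing its call without any 1 liver other than vehicle liver 1, adjusted p up to 0.0957), with a median of 1.13. *Tubb2a* rose from 13.8, 15.2 and 17.4 CPM to 267, 179 and 263 CPM (15.31-fold), and *Tubb2b*, a close paralog with which it may share reads, by 3.92. Of 38 SRF and YAP targets 9 were higher, none was lower and 29 did not pass (4 higher, without vehicle liver 2, to 15). *Ccn1*, a matricellular protein and YAP target, went from 3.42, 3.4 and 2.1 CPM to 85.5, 104 and 97.4 CPM (5.00 ± 0.22). The actin gene *Actg1* rose by 2.92 ± 0.48, led by APAP liver 3 (109, 263 and 499 CPM in APAP livers 1 to 3 against 43.8, 37.1 and 34 CPM).

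The G12 pathway passes from receptors through G12 and G13 to RHOA and the ROCK kinases. Of 29 members 6 were higher and 1, *Gna12*, lower (3 to 6 and 0 to 1), with a median of 0.18. *Rock2* rose from 32.6, 24.3 and 24.6 CPM to 70.9, 60.2 and 89.3 CPM (1.43 ± 0.19, adjusted p = 0.00227, edgeR), and *Myl12a*, a myosin light chain, by 1.26. *Rhob*, an inducible relative of RHOA, rose by 0.94 ± 0.16. *Rock1* (0.18, adjusted p = 0.347) and *Gna13* (0.30, adjusted p = 0.111) did not pass.

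Inflammatory genes gave a mixed picture in which receptors, feedback inhibitors and a few ligands moved. Among 17 genes of the IL-6 family and STAT3, 7 were higher and 2 lower (leave-one-out range 6 to 8 and 1 to 2), including *Stat3* (0.97) and its inhibitor *Socs3* (2.32). The leukemia inhibitory factor receptor *Lifr* fell by 0.70 ± 0.14. Of 25 NF-kB feedback genes 9 were higher and 1 lower (7 to 9 and 0 to 1), led by *Nfkbiz* (2.61 ± 0.46). Chemokines were near background as a list, 4 of 22 higher and 3 lower (2 to 5 and 2 to 3), or 18.2% and 13.6%, with a median of -0.05. The shares of all tested genes were 13.0% and 9.60%. *Cxcl1*, a neutrophil attractant, went from 6.7, 3.29 and 3.22 CPM to 36.2, 94.3 and 109 CPM (4.17 ± 0.47), while *Cxcl12* fell from 274, 290 and 255 CPM to 142, 135 and 102 CPM (-1.11 ± 0.15). *Il1b* did not pass (0.91, adjusted p = 0.263), and *Tnf* and *Il6* had too few counts to be tested.

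Acute phase genes were likewise divided, 9 of 26 higher and 2 lower (3 to 8 and 0 to 2). The fibrinogen genes were among the risers, with *Fgg* at 1938, 1706 and 1820 CPM in the vehicle livers and 3409, 2905 and 3951 CPM after APAP (0.91 ± 0.17). *Cd14*, the endotoxin co-receptor, rose by 2.29 ± 0.31. *Hp*, haptoglobin, did not pass (-0.24). Secreted stress factors gave 10 higher and 2 lower of 24 (8 to 10 and 1 to 3). The EGF receptor ligands *Areg*, at 0 in all vehicle livers and 2.35, 1.9 and 2.65 CPM after APAP, at least 37.5-fold higher, *Btc* (2.75 ± 0.24) and *Hbegf* (3.03 ± 0.42) were among them. The list of coagulation triggers and plasminogen activators gave 4 higher and 1 lower of 12 (3 to 4 and 0 to 1). Interferon-stimulated genes were near background, 4 of 30 higher and 3 lower (2 to 4 and 1 to 3).

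Bulk libraries cannot tell a change in the number of cells of a type from a change of RNA per cell, and markers of other cell types moved unevenly. Of 10 neutrophil markers 4 had enough counts to be tested and 1, the receptor *Cxcr2*, was higher (3.71, lost without APAP liver 3, vehicle liver 2 or vehicle liver 3, adjusted p up to 0.102); their summed level was 4.376, 1.169 and 9.232 CPM after APAP against 2.693, 1.485 and 2.054 CPM, so the groups overlapped, and *Mpo* and *Camp* were at 0 in all 6 livers. Of 8 Kupffer cell markers none passed, with sums of 153.6, 108.2 and 108.4 CPM against 223.3, 133.7 and 146.8 CPM. Of 5 monocyte markers tested, *Cx3cr1* (-2.60) and *Ccr2* (-1.5, lost without APAP liver 2 or 3 or vehicle liver 1 or 3, adjusted p up to 0.0722) were lower. Sums over 8 stellate cell markers were 178.5 to 181.6 CPM after APAP against 205.1 to 257.4 CPM, and over 6 cholangiocyte markers 30.54 to 38.51 CPM against 17.8 to 27.8 CPM, the second led by *Sox9* (3.46), which injured hepatocytes also express. Lymphocyte, sinusoidal endothelial, erythroid and platelet markers gave 0 to 1 higher and 0 to 2 lower of 8, 8, 5 and 2 tested. The part of these cells in the results above was not tested.

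**Figure D4:**
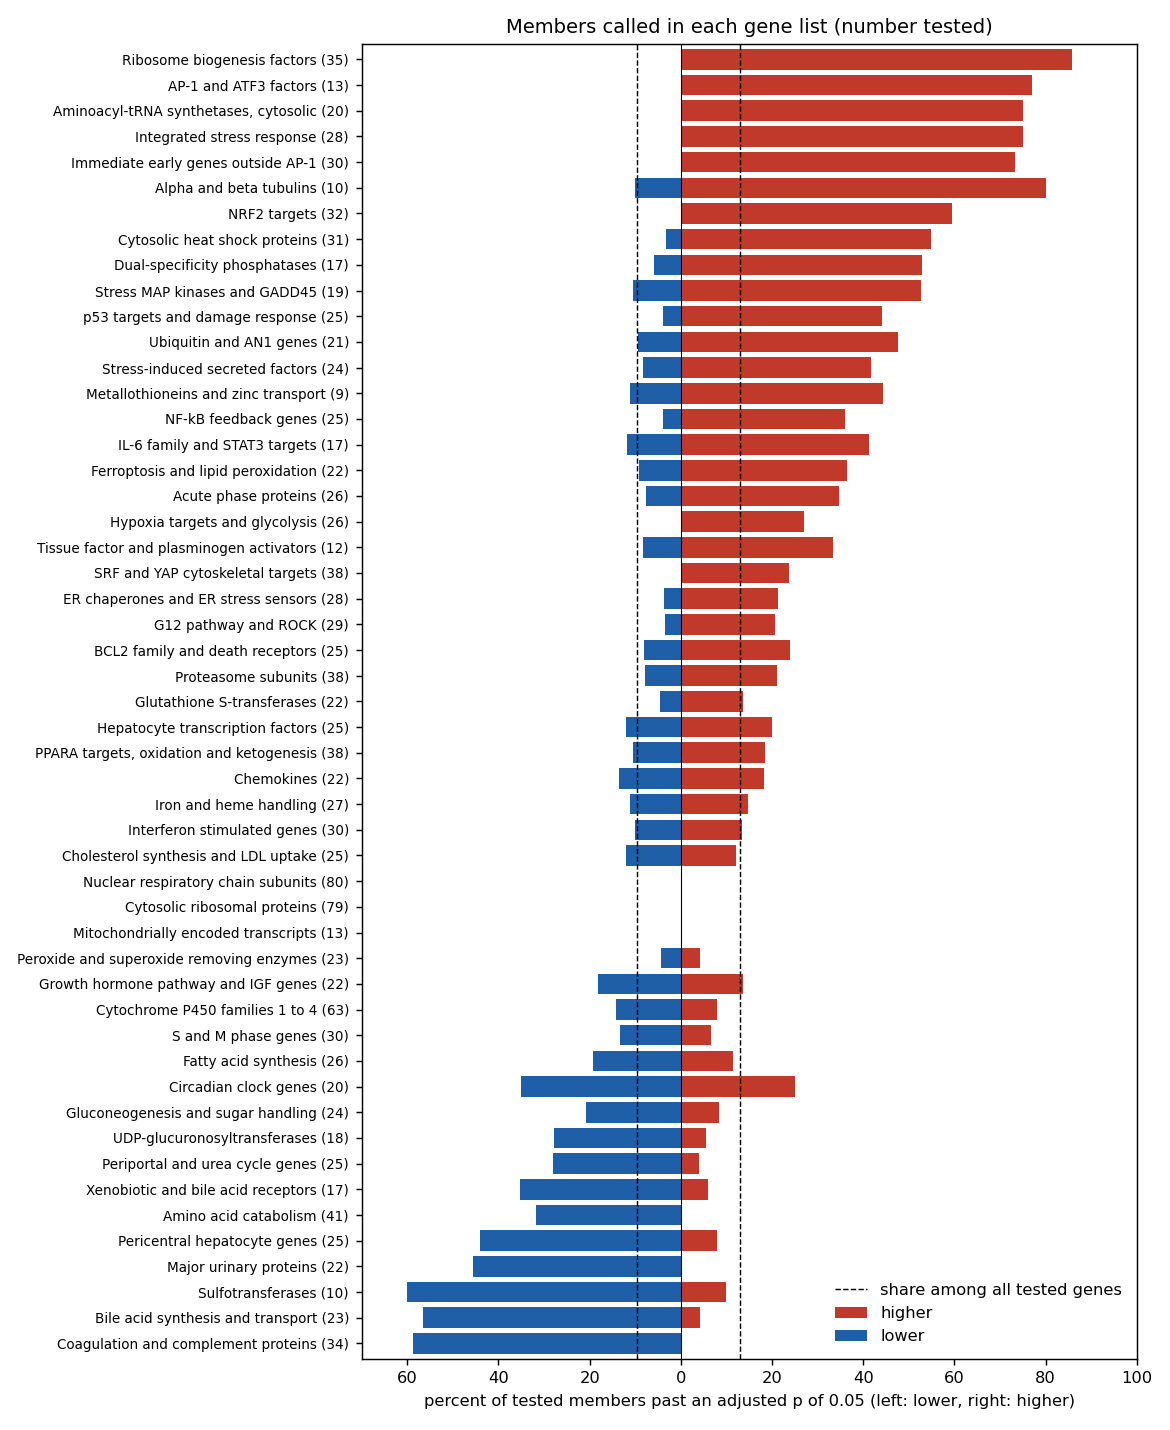
Share of tested members that were higher (red, to the right) or lower (blue, to the left) at an adjusted p of 0.05 in each of 51 gene lists, in percent, with the number tested in brackets; dashed lines mark the shares among all tested genes, 13.0% higher and 9.60% lower. Ribosome biogenesis, AP-1, tRNA synthetase and integrated stress lists lie at the top, coagulation and complement, bile acid and sulfotransferase lists at the bottom, and respiratory chain and ribosomal protein lists have no bar.

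Many of the falling genes carry the specialised functions of hepatocytes. Fallers outnumbered risers among cytochrome P450, sulfation and glucuronidation genes. Of 63 cytochrome P450 genes of families 1 to 4, 5 were higher (7.9%) and 9 lower (14.3%), against 13.0% and 9.60% of all tested genes. Their leave-one-out range was 1 to 4 higher and 4 to 17 lower, with a median of -0.45. *Cyp2e1*, the main source of the toxic APAP metabolite (chromosome 7, 140763819 to 140774990), stood at 8035, 7846 and 8497 CPM in the vehicle livers and at 3708, 5665 and 3491 CPM after APAP (-0.92 ± 0.23, adjusted p = 0.0221, edgeR). The groups did not overlap, but the call was lost without APAP liver 1 (adjusted p = 0.0753), APAP liver 3 (0.0816), vehicle liver 2 (0.0615) or vehicle liver 3 (0.0529). *Cyp1a2*, another APAP-oxidising enzyme, fell from 243, 314 and 287 CPM to 159, 141 and 113 CPM (-1.03 ± 0.17), and *Cyp2d13* by 1.26 ± 0.17. *Cyp3a11* did not pass (-0.57, adjusted p = 0.0712).

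Sulfation and glucuronidation are the main direct routes of APAP clearance. Of 10 sulfation genes 6 were lower and 1 higher (3, without APAP liver 3, vehicle liver 2 or vehicle liver 3, to 6 and 1 to 1), with a median of -1.0, and of 18 UDP-glucuronosyltransferases 5 were lower and 1 higher (3 to 5 and 0 to 1), with a median of -0.51. *Papss2*, which makes the sulfate donor, fell from 106, 113 and 110 CPM to 36.9, 57.2 and 38.8 CPM (-1.30 ± 0.18). *Ugt2b1* fell by 1.30 ± 0.25 and *Ugt1a6b* by 0.84 ± 0.16, in contrast to *Ugdh*, which makes their substrate and rose. *Sult1e1*, estrogen sulfotransferase, was the single riser (4.00 ± 0.69) from a level of at most 0.187 CPM.

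Of 17 receptor genes that govern these enzymes and bile acid genes 6 were lower, 1 was higher and 10 did not pass (4 to 5 lower and 1 to 1 higher). *Nr1i3*, the constitutive androstane receptor, fell from 384, 366 and 335 CPM to 183, 171 and 134 CPM (-1.15 ± 0.15), *Ppara*, the fatty acid receptor, by 1.10 ± 0.16 and *Ahr*, the aryl hydrocarbon receptor, by 0.98 ± 0.18. Of 23 bile acid genes 13 were lower and 1 higher (6, without APAP liver 1, APAP liver 3 or vehicle liver 2, to 13 and 1 to 1), with a median of -0.56. *Cyp7a1*, the rate-limiting enzyme of bile acid synthesis, fell from 127, 84.4 and 107 CPM to 44.6, 50 and 28.5 CPM (2.586-fold). *Akr1d1*, a reductase of the same pathway, fell from 140, 117 and 130 CPM to 30.9, 52.9 and 35.1 CPM (-1.70 ± 0.21). *Slc10a1*, the basolateral bile acid importer NTCP, fell from 762, 696 and 750 CPM to 327, 419 and 305 CPM (2.1-fold), and *Slco1b2* by 1.22 ± 0.26. *Slc10a2*, the importer of ileum and bile ducts, was the riser (2.04 ± 0.24). Hepatocyte transcription factors gave 5 higher and 3 lower of 25 (2 to 5 and 2 to 4), with a median of 0.18. These shares, 20.0% and 12.0%, were not far from the 13.0% and 9.60% of all tested genes. Single members that moved were *Cebpb*, a stress-responsive factor, at 1.01 and *Klf15*, a fasting regulator of amino acid breakdown, at -1.25 ± 0.15.

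An HNF4 letter string, CAAAGTCCA on either strand, was found in 1.4% of the fallers, 0.3% of the risers and 0.7% of all tested genes with a window. Among 15 bile acid genes with a window only *Cyp8b1*, which sets the ratio of cholic acid, held it, and among 25 coagulation and complement genes none did. *Cyp8b1* was at 352, 409 and 503 CPM and then 178, 332 and 218 CPM (-0.80 ± 0.24, adjusted p = 0.0481, edgeR), a call lost without any 1 liver other than APAP liver 2, with adjusted p up to 0.144 (without APAP liver 3). Its 250 bases, chr9:121916306-121916555 of GRCm38.p6 on the minus strand, are shown for that match, which starts 67 bases before the start.
Cyp8b1: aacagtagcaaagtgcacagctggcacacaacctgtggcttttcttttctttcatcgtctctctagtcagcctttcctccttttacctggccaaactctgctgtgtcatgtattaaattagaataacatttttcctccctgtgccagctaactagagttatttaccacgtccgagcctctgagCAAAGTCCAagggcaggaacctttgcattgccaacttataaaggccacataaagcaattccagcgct

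Pericentral hepatocytes are the zone that APAP injures, and the difference between their genes and periportal genes was not tested. Of 25 pericentral genes 11 were lower and 2 higher (leave-one-out range 9 to 14 and 1 to 3), with a median of -0.92. *Glul*, glutamine synthetase, which is restricted to the last hepatocytes around the central vein, was at 671, 678 and 688 CPM in the vehicle livers and at 133, 204 and 70.1 CPM after APAP (5.001-fold lower). *Slc1a2*, expressed in the same cells, went from 89.7, 191 and 181 CPM to 20.1, 15.7 and 5.11 CPM. *Oat*, ornithine aminotransferase, fell by 1.57 ± 0.30 and *Rhbg*, an ammonium transporter, by 2.20 ± 0.35. Of 25 periportal and urea cycle genes 7 were lower and 1 higher (3 to 8 and 0 to 2), with a median of -0.28. *Pck1*, of gluconeogenesis, fell from 3093, 4663 and 4633 CPM to 1882, 1671 and 1354 CPM (-1.34 ± 0.22) and *Aldh1b1* by 1.27 ± 0.20, whereas *Arg1*, arginase, did not pass (0.20, adjusted p = 0.54).

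Of 41 amino acid catabolism genes none was higher and 13 were lower (3, without APAP liver 1, APAP liver 3 or vehicle liver 3, to 18), with a median of -0.42. *Afmid*, of tryptophan breakdown, fell by 1.42 ± 0.22 and *Kmo*, of the same pathway, fell by 0.71 ± 0.12. Of 34 coagulation and complement genes 20 were lower, none was higher (10, without vehicle liver 2, to 19 lower) and all 34 had a negative log2 fold change, with a median of -0.56. *C6*, a component of the membrane attack complex, fell from 187, 211 and 221 CPM to 108, 120 and 110 CPM (1.831-fold). *F7*, which starts the extrinsic pathway, fell by 0.90 ± 0.13, *F11* by 0.86 ± 0.12 and *Klkb1*, prekallikrein, by 0.97 ± 0.16. The other 14 did not pass.

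The major urinary proteins are growth hormone dependent pheromone carriers. Of 22 genes 10 were lower and none higher, with a median of -1.04, but this count rested on single livers, as it was 0 without APAP liver 3, 19 without vehicle liver 1 and 4 to 7 in the other leave-one-out fits. *Mup20* stood at 3031, 3398 and 8196 CPM in the vehicle livers and at 1240, 1774 and 1866 CPM after APAP, with vehicle liver 3 far above the others (-1.58 ± 0.39, lost without APAP liver 1, adjusted p = 0.0748, or APAP liver 3, 0.0565). Their near-identical sequences make single *Mup* values uncertain. Of 22 growth hormone and IGF genes 4 were lower and 3 higher (2 to 5 and 3 to 4). The growth hormone receptor *Ghr* fell from 332, 333 and 327 CPM to 180, 209 and 148 CPM (-0.89 ± 0.15), and *Igfals*, which stabilises circulating IGF1, by 1.23 ± 0.21, while *Igfbp1* rose by 2.31 ± 0.48.

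Lipid and sugar genes moved singly rather than as lists. Cholesterol synthesis gave 3 higher and 3 lower of 25 (leave-one-out range 1 to 4 and 0 to 2), with *Sqle*, squalene epoxidase, at 2.03 ± 0.39. Fatty acid synthesis gave 3 higher and 5 lower of 26 (1 to 3 and 2 to 6), with *Fads2*, a desaturase, at -0.87 ± 0.17. Among 38 PPARA targets 7 were higher and 4 lower (5 to 6 and 1 to 4). *Pdk4*, which shuts pyruvate out of the mitochondrion, rose from 2.44, 2.91 and 3.43 CPM to 19.4, 16.2 and 19.4 CPM (2.65 ± 0.17) and *Plin2*, a lipid droplet coat protein, by 1.90 ± 0.35. Of 24 sugar handling genes 2 were higher and 5 lower (1 to 3 and 3 to 6). *Gys2*, liver glycogen synthase, fell from 305, 309 and 340 CPM to 112, 141 and 131 CPM (2.486-fold) and *Slc2a2*, the glucose transporter GLUT2, by 1.52 ± 0.21. Hypoxia and glycolysis genes gave 7 higher and none lower of 26 (4 to 7), among them *Hif1a* (0.73) and *Slc2a1* (1.36), the glucose transporter GLUT1.

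Mitochondrial respiration genes did not pass in either genome. None of 80 nuclear respiratory chain subunits (median -0.23) and none of 13 mitochondrially encoded transcripts (median -0.22) was called in the 6-liver fit or in any leave-one-out fit. The log2 fold change was negative for 78 of the 80 and for all 13, against 8084 of all 15665 tested genes. The medians were small and negative, and that of the mitochondrially encoded transcripts became positive, 0.104, when limma was run on TPM and 0.068 without vehicle liver 3, the liver with the largest mitochondrial share.

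Clock genes moved in both directions. Of 20 genes 5 were higher and 7 lower (leave-one-out range 5 to 6 and 6 to 8), with a median of -0.04 that turned positive, to 0.078 at most, under 3 alternatives. *Arntl*, which encodes the activator BMAL1, was at 0.762, 2.44 and 1.73 CPM in the vehicle livers and at 22.1, 28.4 and 17.4 CPM after APAP (3.79 ± 0.39). *Nfil3*, a repressor of D-box genes, rose by 2.67 ± 0.24 and *Nr1d1*, REV-ERB alpha, by 2.38 ± 0.27. *Dbp*, an activator of D-box genes, fell from 89.2, 69 and 82.2 CPM to 14.3, 16.6 and 14 CPM (5.365-fold), *Per3* fell by 1.80 ± 0.14, *Per2* by 1.31 ± 0.21 and *Tef*, related to *Dbp*, by 1.06 ± 0.15. *Per1* did not pass (0.59, adjusted p = 0.0574). The hour of the day at which each liver was taken was not given in the sources used here.

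Promoters of the risers differed modestly from those of all genes in the letters searched, on both strands of the same windows. The TATA box, TATAAA, stood in 20.5% of the 273 genes with a window that rose at least 4-fold, in 11.2% of all risers, in 12.8% of fallers and in 10.1% of all tested genes. The AP-1 letters TGANTCA stood in 13.2% of the genes that rose at least 4-fold and 6.8% of all tested genes. They also stood in 12.7% of the 79 genes with a window that fell at least 4-fold, so they did not separate the directions. The cAMP and ATF letters TGACGTCA, which share their half-sites with AP-1, stood in 5.0% of risers, 2.4% of fallers and 3.3% of all. Genes with several annotated starts had more windows (1.38 a gene among fallers, 1.26 among risers and 1.28 in all), so these shares are a description with no test.

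The 6 WT livers gave a second measurement of the drug effect in which no liver is shared. There 255 of 15693 tested genes (1.62%) were higher and 67 (0.427%) lower. Of the KO-label risers that could be tested in WT livers 1875 of 1968 (95.3%) had a positive log2 fold change there too, and 1369 of 1486 fallers (92.1%) a negative one, against 71.7% of all tested genes with the same sign in both. The risers called in both were 233, which is 11.5% of the KO-label risers and 91.4% of the WT risers, and the fallers called in both were 56, which is 3.7% and 83.6%. No gene was called in opposite directions. *Atf3* was at 8.48 in WT livers beside 10.09 under the KO label, *Hmox1* at 4.98 beside 5.79 and *Glul* at -2.17 beside -2.32. List medians did not all share their sign. Major urinary proteins were at 0.30 in WT livers beside -1.04, acute phase genes at -0.40 beside 0.29 and nuclear respiratory chain subunits at 0.21 beside -0.23. Ribosome biogenesis factors (0.46) and ribosomal proteins (0.47) had similar medians in WT livers. The differences between medians were not tested.

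The difference between genotypes was tested directly as an interaction. In the fit over all 12 livers 0 of 16509 genes (0%) passed by edgeR, 848 (5.14%) had an unadjusted p under 0.05, and DESeq2 called 9. On simulated counts with the same number of livers this fit recovered 3 of 100 genes whose response differed 2-fold and 41 of 100 whose response differed 4-fold, so moderate differences were not detectable. WT vehicle liver 2 differed from the other WT vehicle livers in several stress genes, with 253 CPM of *Cxcl1* against 3.04 and 2.27 CPM, 43 CPM of *Jun* against 10.4 and 17.6 CPM, and 3.67 CPM of *Dusp8* against 0.462 and 0.359 CPM. Without that liver the WT fit gave 181 higher and 54 lower genes, against 255 and 67 with all 6 livers. The fit gave 42 and 1 without WT vehicle liver 1, and 41 and 0 without WT vehicle liver 3. The part of WT vehicle liver 2 in the WT calls was not tested.

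**Figure D5:**
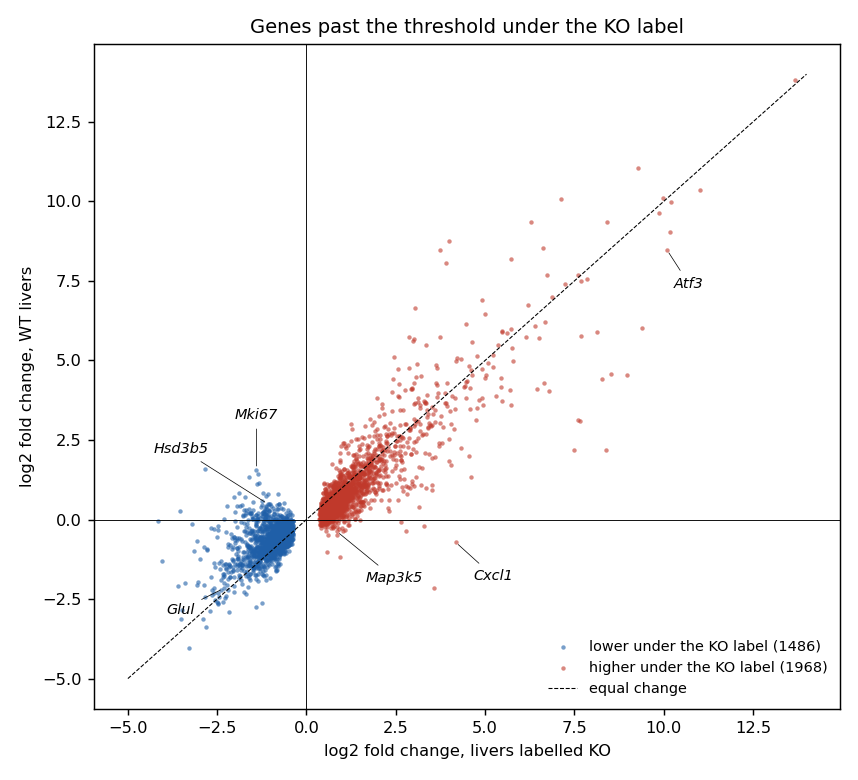
Log2 fold change, APAP against vehicle, of the genes past the threshold under the KO label, in the livers labelled KO (x axis) and in the WT livers (y axis), for the 1968 risers (red) and 1486 fallers (blue) tested in both; the dashed line marks equal change. Most points lie in the quadrants of equal sign, and genes named in the plot include *Cxcl1*, *Map3k5*, *Hsd3b5* and *Mki67*, which lie in the others.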

How the data were processed

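Whole livers of 12 male mice were profiled by poly(A) RNA-seq (stranded TruSeq libraries, paired reads of 100 bases, RNA integrity of at least 7), of which the 6 labelled KO are analysed here. The authors deposited 1 table of raw read counts per gene with FPKM and TPM values beside them; FPKM was not used. Per the labels, the submitters' processing notes name GRCm38 with HISAT2 2.1.0, Bowtie2 2.3.4.1, StringTie 2.1.3b, Trimmomatic 0.38 and FastQC 0.11.7; which tool made the counts, and whether counting used strand, is not given in the sources used here, so reads of overlapping and antisense genes may be shared.

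Counts were tested with edgeR 4.0.16 in R 4.3.3: TMM scaling, filterByExpr (15665 of 45777 genes kept), the quasi-likelihood test, and Benjamini-Hochberg adjustment at 0.05 over all tested genes. CPM values are counts scaled to library size after TMM. Fold changes are fitted log2 values with the standard error; with every vehicle liver at 0, a lower bound against 3 counts per liver is given. The deposited TPM values entered limma 3.58.1 on quantile-normalised log2(TPM + 1) or log2(TPM + 0.1) as alternatives, and the study's scale was the first of these without moderation of the variance; DESeq2 1.42.0 was another. The planned tests used in the report were the contrast in the 6 livers labelled KO, the same in 6 WT livers, and the interaction over 12. Nothing says whether replicates shared a cage or preparation day, so p-values measure the spread between these mice. On simulated counts for 15665 genes the test recovered 45 of 99 genes changed 2-fold and 85 of 99 changed 4-fold, with 11 false calls among 141. That simulation changed only 200 genes, whereas 3538 were called in the data. The adjustment for multiple testing was therefore stricter there, and the rates do not measure the sensitivity of the reported contrast. Same-numbered APAP and vehicle livers did not deviate together (correlations 0.038, 0.039 and 0).

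The comparison, the 51 gene lists and the marker lists were chosen with earlier results of these data known. Named genes were *Gna12*, up to 6 members per list with the smallest p, up to 20 genes each way with the largest change among called genes of mean log2 CPM of at least 1 without overlap, up to 10 with the smallest interaction p, and a fixed set of APAP, ferroptosis and stress genes. Outside that rule, *Junb*, *Map2k4*, *Asns*, *Trib3*, *Hsp90b1*, *Calr*, *Hspb1*, *Hsph1*, *Hspa8*, *Hsp90ab1*, *Hsf1*, *Ugdh*, *Tuba8*, *Lifr*, *Hp*, *Slco1b2*, *Cyp8b1*, *Oat*, *Per2* and the markers of other cells were chosen after their values were seen. Promoter windows came from RefSeq (GRCm38.p6) and matched 11625 of the 15665 tested genes by symbol or identifier, with 14884 windows of 300 bases. A few genes that the rule names are not reported here.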

Additional observations from a re-analysis of the deposited data

Results flagged for a closer look

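Across the 3538 genes past the threshold under the KO label, 6 moved the other way in WT livers with no overlap between APAP and vehicle livers in either genotype; the same held for 50 of all 15665 tested genes. None passed the interaction test after adjustment (adjusted p = 0.847 or 0.872, edgeR).

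*Map3k5*, the JNK-activating kinase ASK1, was higher under the KO label (log2 fold change 0.843), with 77.4, 79.2 and 103 CPM after APAP against 40.7, 53.8 and 50.1 CPM. In WT livers it stood at 69.9, 59 and 69.6 CPM after APAP against 89.9, 76.3 and 89.9 CPM (-0.37), and the unadjusted interaction p was 0.000184 (edgeR). *Hsd3b5*, a male-specific steroid enzyme, was lower under the KO label (-1.081) and at 0.49 in WT livers, with an unadjusted interaction p of 0.000206 (edgeR); its call under the KO label was lost without vehicle liver 2 (adjusted p = 0.0504).

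*Adamts10*, a matrix protease, was at -0.794 under the KO label and 0.32 in WT livers, and lost its call without vehicle liver 2 (adjusted p = 0.0519). *Mki67*, a marker of dividing cells, was at -1.402 and 1.57, at no more than 2.445 CPM in any liver, and its call was lost without any 1 liver other than vehicle liver 3 (adjusted p up to 0.151, without vehicle liver 1). *Tgtp1*, an interferon-inducible GTPase, was at -0.992 and 0.43, lost without APAP liver 1 or 3 or vehicle liver 1 or 3 (adjusted p up to 0.0736). *Gatad2b*, a chromatin regulator, was at 0.561 and -0.25, lost without vehicle liver 1 (adjusted p = 0.0548) or vehicle liver 3 (0.062). *Adamts10* and *Gatad2b* are outside the rule for named genes.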

How the results depend on the processing

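Under the KO label, higher and lower genes numbered 2034 and 1504. Only 831 were lower under library size alone, 844 with all 12 livers in one fit, and 703 higher and 482 lower on the study's scale; the cause was not tested. Leaving out 1 liver gave 1261 to 1967 higher and 734 to 1401 lower. Upper-quartile scaling moved the higher share of calls from 57.5% to 46.5% and library size alone to 73%. The newer quasi-likelihood method of edgeR, added after seeing the data, gave 2090 and 1609. With a replicate block, in which samples share only a number, the counts were 1596 and 1165.

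WT livers gave 255 and 67 calls, 877 and 536 with DESeq2, 968 and 555 with all 12 livers in one fit, 61 and 1 with the replicate block, and 41 to 316 and 0 to 126 when 1 liver was left out (41 and 0 without WT vehicle liver 3, 42 and 1 without vehicle liver 1, 67 and 1 without APAP liver 3, 181 and 54 without vehicle liver 2, and 126 lower without APAP liver 2). The interaction gave 0 calls, 0 with the replicate block, 2 higher and 7 lower with DESeq2, and 0 to 1 each way when 1 liver was left out. Of the 51 lists 31 held more higher than lower members and 15 the reverse, ranging over 26 to 36 and 10 to 20.

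Medians near 0 changed sign. Library size alone gave 0.078 for clock genes, 0.013 for glutathione S-transferases and 0.011 for *Gpx4* itself. With 1 liver left out, clock genes ranged from -0.087 to 0.073 (0.073 without APAP liver 3, 0.036 without vehicle liver 1), ferroptosis genes from -0.048 to 0.165, ribosomal proteins from -0.091 to 0.254 and mitochondrially encoded transcripts from -0.401 to 0.068, with -0.091 without vehicle liver 1 and 0.068 without vehicle liver 3. Ribosomal proteins gave -0.043 under upper-quartile scaling. Ferroptosis genes gave -0.055 under upper-quartile scaling, -0.02 by limma on log2(TPM + 1) and on the study's scale, -0.031 with a pseudocount of 0.1, -0.032 with at least 10 counts in every liver, -0.019 with the replicate block and -0.048 without APAP liver 2. Mitochondrially encoded transcripts gave 0.104 in all 3 TPM fits. For 190 named genes, 3206 of 3410 values kept direction and side of the threshold, 196 fell below it, 7 passed it and 1 changed sign. The cause of these shifts was not tested.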

Other observations

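Long noncoding RNAs were unevenly divided between the directions. They made up 207 of the 1504 fallers (13.8%) and 97 of the 2034 risers (4.8%), against 1279 of the 15665 tested genes (8.2%), while protein-coding genes made up 84.0%, 89.4% and 84.7%. The difference between the shares was not tested. Median gene span was 22390 bases for fallers, 20386 for risers and 18837 for all tested genes.

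The next genes lie outside the gene lists and were chosen after their values were seen. *Ifrd1*, an interferon-related transcriptional regulator, was at a log2 fold change of 4.65 ± 0.17 under the KO label and 4.55 in WT livers (adjusted p = 1.18e-05 and 0.000638, edgeR). *Chka*, choline kinase alpha, was at 4.99 ± 0.27 and 4.44, and *Pvr*, the poliovirus receptor homolog, at 2.58 ± 0.14 and 2.62.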
